A study of Homo sapiens with 3 samples.

Results

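Oxidative phosphorylation is carried out by 5 protein complexes of the inner mitochondrial membrane, whose subunits were followed here at the level of RNA. The table of the study was searched for the gene names of these subunits, the NDUF, SDH, UQCR, COX4 to COX8 and ATP5 families for the nuclear genome and the MT-ND, MT-CO, MT-CYB and MT-ATP genes for the mitochondrial genome. Of 29689 genes, 139 matched and 39 of them were left out as pseudogenes by name. Another 7 of the 100 that remained were set aside, since their names stand for antisense RNAs, a readthrough transcript, copies or proteins that are not subunits. The 93 subunits left comprised 80 coded in the nucleus and 13 coded in mitochondria.

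The RNAseq data came from xenograft tumors of SUM-149, a human TNBC (triple-negative breast cancer) cell line, in female Nu/Nu mice. Cells were placed in the mammary fat pad of this athymic strain, which still has its own stroma, vessels and innate immune cells. There was 1 library for vehicle, 1 for CDK2i (dinaciclib, 10 days) and 1 for EZH2i (EPZ6438, 10 days), and the number of animals behind a library was not given in the sources used here. The labels name EPZ6438, whereas a legend of the study names GSK343 for SUM-149 xenografts. With 1 library per condition no value below has a replicate, no test was possible and each change is a difference between 2 libraries. The FPKM values were relative to 16.8 to 19.1 M fragments (M, 1000000), as recovered from the step that 1 fragment makes in the values of weakly expressed genes. The 9 epithelial markers taken for the tumor line summed to 15482 FPKM in CDK2i, to 6515 in vehicle and to 6275 in EZH2i. Nearly all of each sum came from the keratins KRT5, KRT6A, KRT14 and KRT17. The list also held KRT18, CDH1 and EPCAM, whose proteins the study uses as luminal markers. EPCAM and EGFR were highest in EZH2i, and the other markers in CDK2i. The cells of the host are mouse cells, whereas alignment was to the human genome, so sums over human gene symbols do not measure host cells. By these symbols, markers of leukocytes summed to 5.30 to 11.3 FPKM, of fibroblasts to 19.9 to 29.2, of endothelium to 0.466 to 0.833 and of striated muscle to 2.40 to 5.15. Those of adipocytes, nearly all of it FABP4, summed to 33.3 in vehicle, 19.3 in CDK2i and 3.5 in EZH2i.

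Complexes I and II feed electrons from NADH and succinate into ubiquinone, complex III passes them to cytochrome c, complex IV reduces oxygen, and complex V uses the proton gradient to make ATP. Complexes I, III, IV and V are built from subunits of both genomes, whereas complex II is coded by the nucleus alone. Mitochondrial genes are transcribed as long polycistronic RNAs from both strands of the circular genome and cut into separate RNAs. The nuclear genes are scattered over the chromosomes, and factors such as NRF1, the ETS family member GABPA and YY1 are known to bind many of their promoters.

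Sequences of some members are shown for both genomes. Of the 80 nuclear members, 65 had a promoter in the RefSeq table (GRCh38.p14), taken as 250 bases before to 50 after the start. Those without one included ATP5B, ATP5D, ATP5G3, ATP5J2, COX6C, COX7A1, NDUFA4, NDUFA4L2, NDUFB5, NDUFB9, NDUFC2, NDUFS5, SDHC and UQCRB. Each promoter was searched on both strands for 8 letters per factor, GCATGCGC for NRF1, CCGGAAGT for ETS factors and ATGGCGGC for YY1. The NRF1 letters are nearly their own complement, so GCGCATGCGC holds overlapping matches on both strands, while the 3 motifs do not overlap one another. NRF1 letters were found in 20% of the members' promoters, against 3.27% of all 27305 promoters and 5.78% of the 8250 promoters of expressed genes. For ETS letters the shares were 13.8%, 4.44% and 9.55%, and for YY1 letters 18.5%, 3.21% and 6.95%. At least 1 of the 3 was held by 28 of the 65 promoters, or 43.1%, against 10.0% and 20.2%. Promoters of 68 cytosolic ribosomal protein genes held the NRF1 letters in 4.41%, the ETS letters in 16.2% and the YY1 letters in 7.35%. The 4 members' promoters that held NRF1 letters together with another motif follow, 5′ to 3′ on the strand of the gene, with every match in capitals.
COX5B (chr2:97645812-97646111, plus strand): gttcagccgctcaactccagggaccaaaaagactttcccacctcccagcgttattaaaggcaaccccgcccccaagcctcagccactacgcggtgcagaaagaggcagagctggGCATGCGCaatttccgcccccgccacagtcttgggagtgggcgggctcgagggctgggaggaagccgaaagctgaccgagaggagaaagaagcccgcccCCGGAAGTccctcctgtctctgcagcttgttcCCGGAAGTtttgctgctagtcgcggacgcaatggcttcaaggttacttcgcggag
NDUFS6 (chr5:1801157-1801456, plus strand): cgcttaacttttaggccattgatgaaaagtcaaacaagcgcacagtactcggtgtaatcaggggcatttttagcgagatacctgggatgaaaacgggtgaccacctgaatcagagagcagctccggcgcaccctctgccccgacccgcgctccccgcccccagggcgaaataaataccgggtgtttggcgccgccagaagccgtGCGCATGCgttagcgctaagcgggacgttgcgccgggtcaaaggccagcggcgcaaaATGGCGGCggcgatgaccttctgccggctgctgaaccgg
SDHB (chr1:17053983-17054282, minus strand): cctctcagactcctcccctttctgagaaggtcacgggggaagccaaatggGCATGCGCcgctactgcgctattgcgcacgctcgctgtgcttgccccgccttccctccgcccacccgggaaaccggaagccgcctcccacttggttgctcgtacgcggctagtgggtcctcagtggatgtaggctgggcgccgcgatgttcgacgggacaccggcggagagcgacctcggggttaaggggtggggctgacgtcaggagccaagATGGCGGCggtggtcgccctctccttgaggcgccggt
SDHD (chr11:112086623-112086922, plus strand): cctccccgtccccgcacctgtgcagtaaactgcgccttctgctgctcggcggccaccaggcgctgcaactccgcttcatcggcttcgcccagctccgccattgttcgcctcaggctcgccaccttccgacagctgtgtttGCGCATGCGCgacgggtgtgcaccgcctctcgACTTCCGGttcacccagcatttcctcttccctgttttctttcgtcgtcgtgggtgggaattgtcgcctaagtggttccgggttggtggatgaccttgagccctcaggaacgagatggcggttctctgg
COX5B is a subunit of complex IV, NDUFS6 an accessory subunit of complex I, and SDHB and SDHD are the iron-sulfur subunit and a membrane anchor of complex II. Their levels differed little in CDK2i, by −0.33, 0.20, 0.39 and −0.02 on the log2 scale, and went apart in EZH2i, by −0.78, −0.65, 0.08 and 0.26. Over the 59 expressed members with a promoter in the table, the median change in EZH2i was −0.65 for the 13 with NRF1 letters and −0.42 for the 46 without, and −0.30 for the 11 with YY1 letters and −0.62 for the 48 without. In CDK2i these medians were −0.03, −0.12, 0.13 and −0.15. For ETS letters the 8 members with and the 51 without had nearly equal medians, −0.44 and −0.50 in EZH2i and −0.12 and −0.09 in CDK2i. These shares and medians are descriptions of letters in 1 window and carry no test.

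The 13 mitochondrial members lie on a genome of 16569 bases (GRCh37 copy), all but MT-ND6 on the same strand. Reading frames of 3 neighboring pairs overlap, which bears on how fragments are counted. The frames of MT-ATP8 and MT-ATP6 share 46 bases (chrM:8527-8572), shown with the start codon of MT-ATP6 and the stop codon of MT-ATP8 in capitals. Those of MT-ND4L and MT-ND4 share 7 bases (chrM:10760-10766), shown in capitals within their surroundings, and those of MT-ATP6 and MT-CO3 share 1 base.
MT-ATP8 and MT-ATP6: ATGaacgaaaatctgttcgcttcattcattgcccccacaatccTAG
MT-ND4L and MT-ND4: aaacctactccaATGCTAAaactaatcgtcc
Whether counting used the strand and how it treated a fragment over 2 genes was not given in the sources used here, so the levels of these pairs and of MT-ND6 are less certain than the others. In the nuclear genome 3 copies of mitochondrial genes on chromosome 1 also carried sizable levels. MTATP6P1 was at log2 FPKM 10.63 (vehicle), 10.14 (CDK2i) and 10.61 (EZH2i), MTND1P23 at 10.29, 8.71 and 9.39, and MTND2P28 at 5.38, 4.71 and 5.23. Fragments that fit a gene and its copy equally could have been counted for either.

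All values are log2 FPKM, fragments per kilobase of gene and per M fragments, which allows levels to be compared between genes. A gene was taken as expressed when its mean log2 FPKM was above 1 and no library was at FPKM 0. All 13 mitochondrial members and 73 of the 80 nuclear members were expressed. In vehicle the mitochondrial members had a median log2 FPKM of 12.57 and the nuclear members one of 5.80, against 3.27 over all 11109 expressed genes. Together the 13 mitochondrial members made up 21.6% (vehicle), 14.2% (CDK2i) and 19.1% (EZH2i) of the summed FPKM, or 10.1%, 6.18% and 7.95% of the fragments. The nuclear members made up 1.21%, 1.28% and 1.02% of the summed FPKM and 1.83%, 1.73% and 1.34% of the fragments. The mitochondrial share was thus highest in vehicle and lowest in CDK2i. The nuclear share was lowest in EZH2i on both scales, and highest in CDK2i by summed FPKM but in vehicle by fragments.

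**Figure D1:**
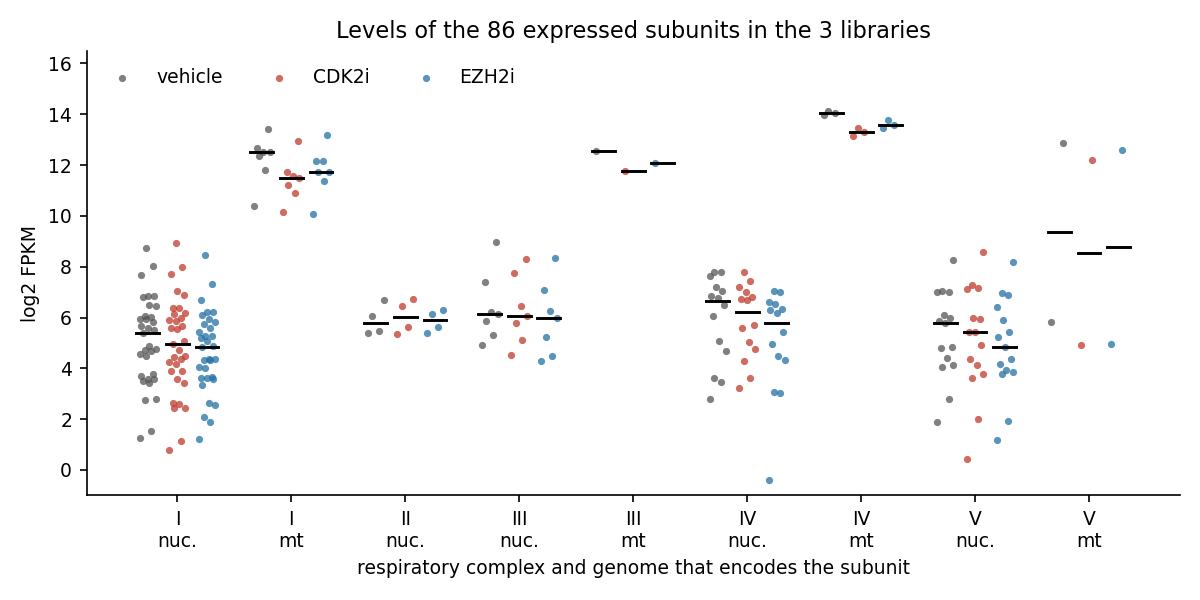
Log2 FPKM (y axis) of the 86 expressed subunits by respiratory complex and coding genome (x axis), each point 1 subunit in the vehicle, CDK2i or EZH2i library and each black line the median. Mitochondrially coded subunits lie mostly above log2 FPKM 10, MT-ATP8 at 4.91 to 5.84 apart, and nuclear-coded subunits below 9.

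The main contrast between the genomes was in CDK2i. There the median change against vehicle was −0.81 for the 13 mitochondrial members and −0.09 for the 73 expressed nuclear members, against −0.11 over all expressed genes, and when libraries were centred on their median expressed gene the nuclear median turned to 0.10 while the mitochondrial one was −0.63. All 13 mitochondrial members were lower than in vehicle, with changes from −0.25 to −1.14 on the log2 scale. All 13 lay below the nuclear median, as did the median of all expressed genes. Of the nuclear members 46 of 73 were lower, 63.0%, where 58.0% of all expressed genes were lower, and 6 of 73 lay below the mitochondrial median. The shares of all expressed genes below either median were not counted, so the counts below them are no result about the members. In EZH2i both genomes had lower levels by nearly the same amount. The median change was −0.48 for the mitochondrial and −0.50 for the nuclear members, against 0.19 over all expressed genes. With the centring these were −0.73 and −0.75, and with each library scaled to the same summed FPKM they were −0.23 and −0.25. All 13 mitochondrial and 67 of 73 nuclear members were lower, where 38.5% of all expressed genes were lower.

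The nuclear median less the mitochondrial median, which no scaling between the libraries can move, was 0.73 for CDK2i against vehicle and −0.02 for EZH2i against vehicle. Between the treated tumors, EZH2i less CDK2i, the nuclear members were lower at a median of −0.34 and the mitochondrial members higher at 0.34 (−0.77 and −0.10 with the centring), with 0.35 over all expressed genes. Here 60 of 73 nuclear members and 2 of 13 mitochondrial members were lower, against 33.0% of all expressed genes. The mitochondrial median was near that of all expressed genes. Below it lay 69 of 73 nuclear members, where the share of all expressed genes was not counted. The 3 comparisons share libraries and are given side by side only. In bulk tumors fewer cells of a type and less RNA per cell cannot be told apart.

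In place of an error between replicates, each gene was given a spread, the SD of EZH2i less CDK2i over the 200 genes nearest to it in mean expression. It lay between 0.61 and 1.09 for nuclear and between 0.68 and 0.71 for mitochondrial members and holds drug effects as well as noise. In CDK2i 9 of the 13 mitochondrial and 7 of the 73 nuclear members were lower by more than their spread, and 1 nuclear member was higher. In EZH2i the numbers were 2 of 13 and 20 of 73 lower, with none higher, so most members taken alone did not leave the range of the spread. The share of all expressed genes past their spread was not counted, so these numbers are no result about the members. A call was made for a fold change above 2 with at least 1 library of the pair above log2 FPKM 3, the limits the study used without its p-value. In CDK2i 7 of 80 members that could pass were lower and 1 higher, 8.75% and 1.25%, where 8.07% and 3.27% of all genes that could pass were. In EZH2i 5 of 79 were lower and 0 higher, 6.33% against 4.42% lower and 8.93% higher of all genes. Between EZH2i and CDK2i 3 of 80 were lower and 1 higher, against 6.52% lower and 17.5% higher of all genes. As deposited, these shares of members lay near the background or below it, so these counts of calls are no result about the members. With the centring on the median expressed gene, 2 members were called lower and 1 higher in CDK2i, 2.50% and 1.25% against 5.14% and 5.35% of all genes under that centring. In EZH2i 15 were called lower and 0 higher, 19.0% lower against 8.27% lower and 3.86% higher of all genes. Between EZH2i and CDK2i 17 were called lower and 1 higher, 21.2% and 1.25% against 16.1% and 6.29% of all genes.

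**Figure D2:**
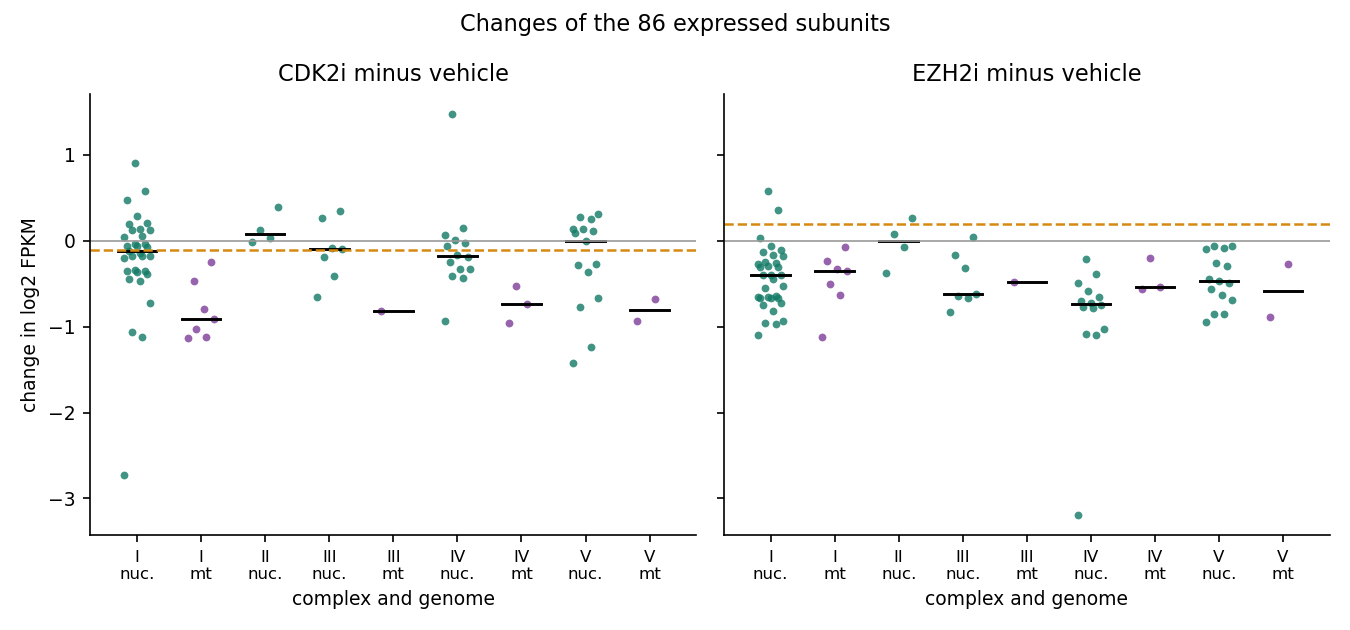
Change in log2 FPKM against vehicle (y axis) of the 86 expressed subunits by complex and coding genome (x axis), CDK2i on the left and EZH2i on the right. Points are subunits, green for nuclear and purple for mitochondrial, black lines are medians, and the dashed line is the median of all expressed genes (−0.11 and 0.19). Mitochondrial subunits sit below the dashed line in both panels, and the nuclear subunits mostly in the right panel.

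Among the mitochondrial members the transcripts of complex IV were the most abundant. MT-CO3 was at log2 FPKM 14.12 (vehicle), 13.16 (CDK2i) and 13.58 (EZH2i), MT-CO2 at 14.03, 13.29 and 13.46, and MT-CO1, the catalytic subunit that reduces oxygen, at 13.99, 13.46 and 13.79. As deposited, vehicle was highest and CDK2i lowest in each of these genes. MT-CYB, the cytochrome b of complex III, was at 12.57, 11.76 and 12.09, in the same order. With libraries centred on their median expressed gene, the mitochondrial median of EZH2i less CDK2i was −0.10 in place of 0.34. The order of the treated tumors thus depended on the scaling.

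Of the 7 mitochondrial subunits of complex I, all of which belong to its membrane arm, MT-ND1 was at log2 FPKM 12.68 (vehicle), 11.56 (CDK2i) and 12.17 (EZH2i). MT-ND6, the member on the other strand, was at 12.36, 11.22 and 11.73. Both were more than 2-fold lower in CDK2i than in vehicle and passed the call rule, with changes of −1.11 and −1.14. MT-ND3 was at 12.51, 11.48 and 11.39 and was the only mitochondrial member called in both treated tumors, at −1.03 in CDK2i and −1.12 in EZH2i. MT-ND2 was at 12.50, 11.72 and 12.16 and MT-ND4 at 13.40, 12.93 and 13.17. MT-ND5 was at 11.81, 10.90 and 11.74, so that its change was −0.90 in CDK2i and −0.07 in EZH2i. MT-ND4L was at 10.39, 10.15 and 10.06, with the smallest difference of all in CDK2i, −0.25.

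The mitochondrial subunits of complex V belong to its part in the membrane, through which protons pass. MT-ATP6 was at log2 FPKM 12.88, 12.21 and 12.61 and MT-ATP8 at 5.84, 4.91 and 4.95 in vehicle, CDK2i and EZH2i. The level of MT-ATP8 was far below that of MT-ATP6 in every library, although both lie on the same RNA and share the 46 bases shown above. As deposited, 10 of the 13 mitochondrial members were higher in EZH2i than in CDK2i by 0.17 or more, with MT-ND5 at 0.83 the highest. MT-ND3, MT-ND4L and MT-ATP8 differed by −0.09, −0.08 and 0.04. These 3 have the shortest genes of the 13, at 346, 297 and 207 bases. With libraries centred on their median expressed gene, the median of the 13 in this comparison was −0.10, so the count of higher members depends on the scaling.

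**Figure D3:**
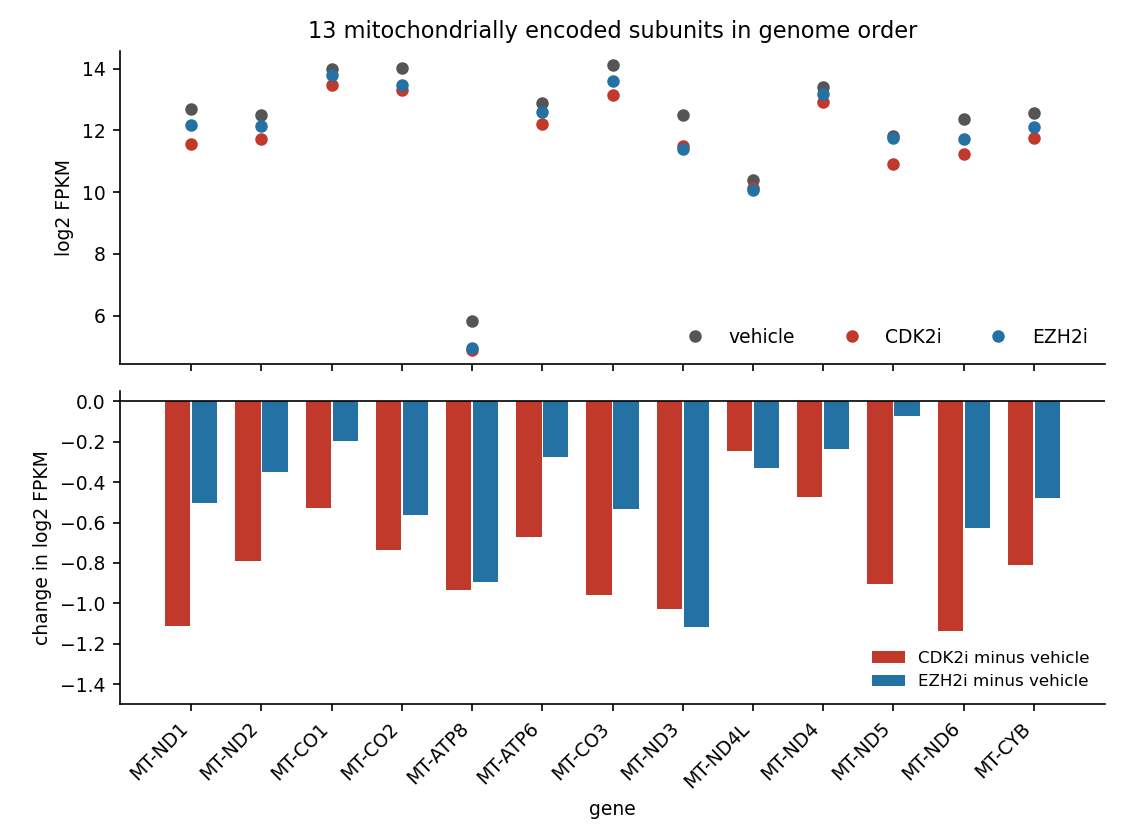
The 13 mitochondrially coded subunits in the order of the genome (x axis), with log2 FPKM in the 3 libraries above and the change in log2 FPKM against vehicle below. All bars point down, those of CDK2i from −0.25 to −1.14 and those of EZH2i from −0.07 to −1.12.

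Complex I had the most nuclear members, 36, of which 33 were expressed. In CDK2i 22 of them were lower, with a median of −0.12, and in EZH2i 30 were, with −0.40. The core subunits, which carry the flavin, the iron-sulfur clusters and the quinone site, had a median of 0.12 in CDK2i and −0.37 in EZH2i over 6 expressed genes, and the 27 expressed accessory subunits −0.17 and −0.40. NDUFV1, which binds NADH, was the most abundant core subunit, at log2 FPKM 8.04 (vehicle), 7.97 (CDK2i) and 7.32 (EZH2i). NDUFS1 was at 3.42, 3.90 and 4.0, NDUFS3 at 6.03, 5.86 and 5.59, and NDUFS8 at 5.52, 5.65 and 5.26. NDUFS1 was thus higher in both treated tumors, at 0.48 and 0.58. NDUFS7 (chromosome 19, 1383526 to 1395588), which holds the last iron-sulfur cluster, was at 3.60, 4.17 and 2.63. Its change was 0.57 in CDK2i and −0.97 in EZH2i, and its difference of −1.54 between them passed the call rule at a spread of 0.78. NDUFV2 was at −0.18, −1.0 and 0.86 and was not taken as expressed.

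Among the accessory subunits of complex I, NDUFA11 (chromosome 19, 5891287 to 5904017), which lies in the membrane arm, differed most. It was at log2 FPKM 3.5 (vehicle), 0.78 (CDK2i) and 3.33 (EZH2i), a change of −2.72 in CDK2i at a spread of 0.97, with EZH2i close to vehicle. Its transcript shares 68.2% of its bases with another annotated gene on the same strand, so that its fragments may be split between them. NDUFB1, a small membrane subunit, was at 4.56, 3.44 and 3.62, and NDUFV3, a subunit of the peripheral arm, at 3.68, 2.62 and 3.57. Both passed in CDK2i, at −1.12 and −1.06, and the change of NDUFV3 in EZH2i was −0.10. NDUFA1 was called in EZH2i, at 5.95, 5.6 and 4.86, a change of −1.09. NDUFB7 was at 7.66, 7.71 and 6.70, and its difference of −1.01 between EZH2i and CDK2i passed. NDUFA13, also known for a role in cell death, was at 1.52, 2.43 and 1.88, and its change of 0.91 in CDK2i was second to that of NDUFA4L2 among all expressed members, with 83.9% of its transcript shared with other genes. The most abundant nuclear member of complex I was NDUFS5, at 8.73, 8.93 and 8.47.

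By their median the 4 subunits of complex II stood near vehicle in both treated tumors, while SDHB differed by 0.39 in CDK2i and SDHA by −0.38 in EZH2i. SDHA, the flavoprotein that oxidizes succinate, was at log2 FPKM 6.69 (vehicle), 6.72 (CDK2i) and 6.31 (EZH2i). SDHB was at 6.06, 6.45 and 6.14, and the membrane anchors SDHC and SDHD were at 5.48, 5.61 and 5.41 and at 5.38, 5.36 and 5.64. As a complex they had a median of 0.08 in CDK2i against 0.0015 in EZH2i, and no member left its spread of 0.62 to 0.72. Complex II is the only complex with no mitochondrial gene, and its enzyme also belongs to the citric acid cycle.

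For complex III 7 of 8 nuclear members were expressed, and their median was −0.09 in CDK2i against −0.62 in EZH2i. The large core proteins UQCRC1 and UQCRC2 were at log2 FPKM 7.40, 7.74 and 7.08 and at 6.20, 6.47 and 6.24, higher in CDK2i than in vehicle by 0.34 and 0.27. UQCRFS1, the Rieske iron-sulfur protein, was at 6.13, 6.04 and 5.97. The small subunits had lower values in both treated tumors. UQCRH, the hinge protein, was at 8.96, 8.30 and 8.34, UQCRQ at 5.31, 5.12 and 4.48, UQCR10 at 5.86, 5.77 and 5.22, and UQCRB at 4.94, 4.52 and 4.27. None of the 7 passed the call rule in any comparison.

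Complex IV had the lowest nuclear median in EZH2i, −0.74, with 14 of 14 expressed members lower, and a median of −0.18 in CDK2i with 10 of 14 lower. COX7A2 was at log2 FPKM 7.63 (vehicle), 7.20 (CDK2i) and 6.60 (EZH2i), and COX7B at 6.50, 5.57 and 5.42. NDUFA4, first assigned to complex I and later to complex IV, was at 6.05, 5.72 and 4.94. These 3 passed the call rule in EZH2i, at −1.03, −1.09 and −1.10, beyond spreads of 0.64 to 0.69. COX4I1, the largest nuclear subunit, was at 6.86, 6.69 and 6.16 and COX5B, whose promoter is shown above, at 7.78, 7.44 and 7.0. In both EZH2i was lowest.

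Several subunits of complex IV exist as isoforms of different tissues or states. NDUFA4L2 (chromosome 12, 57628686 to 57634498), a paralog of NDUFA4 known to be induced by hypoxia, was at log2 FPKM 2.80 (vehicle), 4.28 (CDK2i) and −0.39 (EZH2i), from about 327, 1042 and 37 fragments. The 3 libraries were thus far apart, with CDK2i 2.79-fold higher than vehicle (95% interval 2.47 to 3.17 from counting error alone) and EZH2i 9.13-fold lower. The change in CDK2i, 1.48, and the difference between the treated tumors, −4.67, passed the call rule at a spread of 1.00. The change of −3.19 in EZH2i did not, since neither value was above log2 FPKM 3. The difference of −4.67 was the lowest of all 11109 expressed genes in that comparison. NDUFA4 itself was lower in both treated tumors, so NDUFA4L2 relative to NDUFA4 was higher than in vehicle in CDK2i and lower in EZH2i.

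Muscle and heart isoforms were at or near 0. COX6A2 was at FPKM 0 in vehicle and EZH2i and at log2 FPKM −3.77 in CDK2i, where its ubiquitous form COX6A1 was at 3.64, 3.22 and 3.05. COX7A1 was at −0.36, −1.28 and 0.51, below COX7A2 and below COX7A2L, a factor of supercomplex assembly, at 4.70, 4.77 and 4.49. COX6B2, known mainly from testis, was expressed at 3.46, 3.60 and 3.07 beside COX6B1 at 7.80, 7.81 and 7.02. COX8C, also a testis form, was at −3.16 and −3.35 and at FPKM 0 in EZH2i, beside COX8A at 5.07, 5.02 and 4.32. COX4I2, COX7B2 and UQCRHL were not among the genes of the table.

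**Figure D4:**
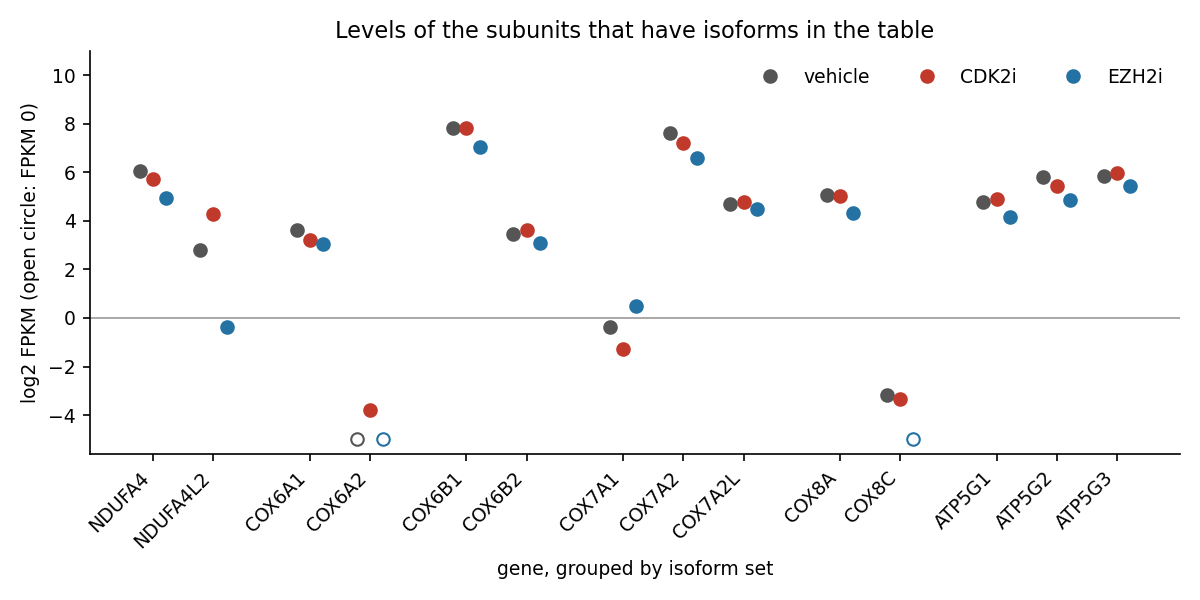
Log2 FPKM (y axis) in the 3 libraries of subunits with isoforms (x axis, grouped by set), with open circles for FPKM 0. NDUFA4L2 spreads from −0.39 in EZH2i to 4.28 in CDK2i, and the other expressed isoforms lie closer together.

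Complex V, the ATP synthase, had 15 nuclear members, all expressed, and their median was −0.003 in CDK2i against −0.46 in EZH2i. The catalytic head was close to vehicle in EZH2i. In CDK2i ATP5A1 and ATP5B were higher by 0.14 and 0.31, within their spreads of 0.62 and 0.74. ATP5A1 was at log2 FPKM 6.99, 7.13 and 6.89, ATP5B at 8.27, 8.58 and 8.18, and ATP5C1, the central shaft, at 7.04, 7.18 and 6.98. The 3 genes for the identical c subunit of the rotor differed. ATP5G1 was at 4.79, 4.90 and 4.16, ATP5G2 at 5.80, 5.43 and 4.85 and ATP5G3 at 5.86, 5.96 and 5.42, each lowest in EZH2i. The small ATP5E of the shaft was at 6.09, 5.42 and 5.24. ATP5J2 was at 4.84, 3.60 and 4.38 and passed in CDK2i at −1.24, and 37.2% of its transcript is shared with PTCD1 and a readthrough of both. ATP5O, of the stalk, had a change of −1.42 in CDK2i from low levels of 1.87, 0.44 and 1.18, with 63.8% of its transcript shared.

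The 7 nuclear members below the expression limit were NDUFB8, NDUFA7, NDUFV2, UQCR11, COX6A2, COX7A1 and COX8C. NDUFB8, NDUFA7 and UQCR11 encode subunits present in most tissues, yet were at log2 FPKM 0.63, 1.31 and 0.82 in vehicle. Of 7 nuclear members whose transcript shares over 50% of its bases with a gene on the same strand, 6 were below log2 FPKM 4 in every library (NDUFA11, NDUFA13, ATP5O, NDUFB8, NDUFA7 and NDUFV2) and SDHA was not. The share of the other nuclear members below this level was not counted, and UQCR11 shares 18.1% of its transcript. How the counting treated shared bases was not given in the sources used here, and whether sharing bears on the low levels was not tested. Without the 7 members that share over 50%, the nuclear medians were −0.09 in CDK2i and −0.53 in EZH2i over 69 genes.

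The members' transcripts were short, at a median of 894 nt against 3075 nt over the expressed nuclear genes, and in EZH2i the changes of all genes moved with length. They moved more with GC content, with a Spearman correlation of −0.58 against 0.49 for length over the expressed nuclear genes. The median GC content was 47.0% for the members and 49.8% for these genes. Over the other expressed nuclear genes, the shortest 511 (median 619 nt) had a median change of −0.41 in EZH2i and −0.25 in CDK2i, and the longest 510 (median 10706 nt) one of 0.71 and 0.05. Among the members, the 35 under 800 nt had medians of −0.65 in EZH2i and −0.20 in CDK2i, the 21 of 800 to 2000 nt −0.45 and −0.02, and the 17 above 2000 nt −0.24 and −0.12. A trend in GC content and length was fitted over other genes, without the cytosolic ribosomal protein genes, which are also short. With this trend removed, the nuclear median was −0.40 in EZH2i and 0.12 in CDK2i, and that of all genes 0.01 and 0.05. By length class the medians with the trend removed were −0.34, −0.27 and −0.79 in EZH2i and 0.06, 0.24 and 0.11 in CDK2i. By class median, the nuclear members thus lay below the trend in EZH2i in all 3 classes. In CDK2i the class under 800 nt, at 0.06, was at the 0.05 of all genes, and the longer classes were above it.

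**Figure D5:**
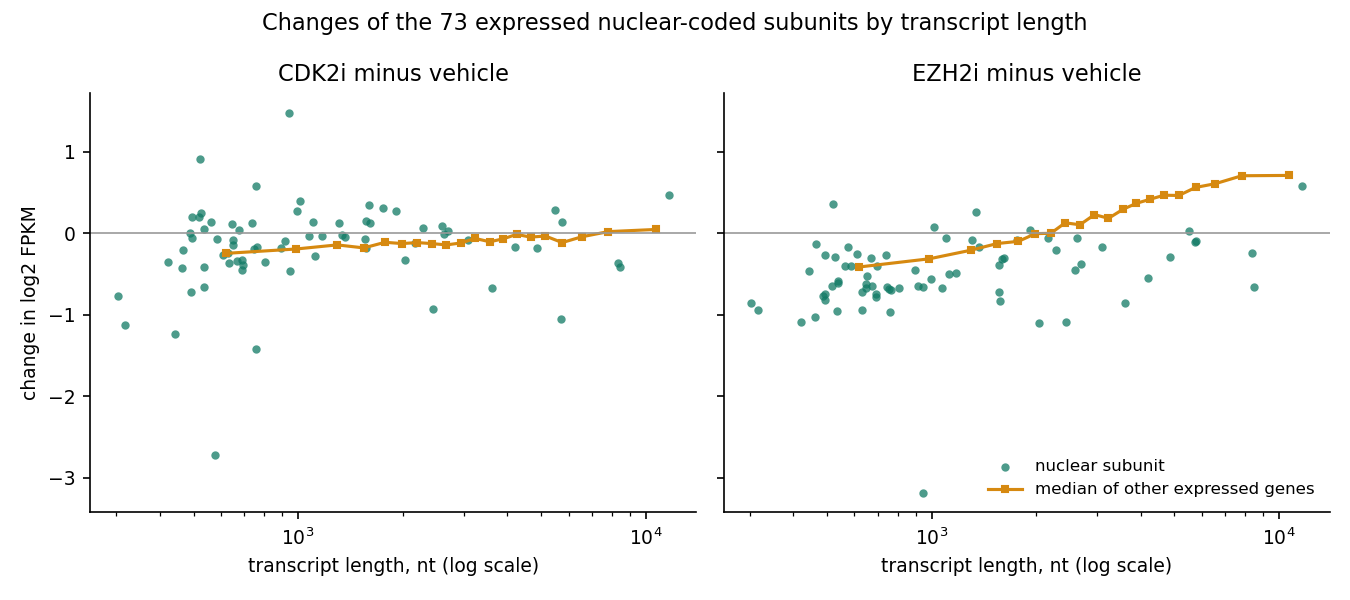
Change in log2 FPKM against vehicle (y axis) of the 73 expressed nuclear-coded subunits (green points) by transcript length in nt (x axis, log scale). The orange line is the median of the other expressed genes, cytosolic ribosomal protein genes included, in 20 length classes. In EZH2i the orange line runs from −0.41 to 0.71 and most subunits lie below it, and in CDK2i it stays between −0.25 and 0.05 with the subunits on both sides.

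Other genes of mitochondrial metabolism were counted from lists, and their medians are given beside those of the subunits. In CDK2i 17 of 18 genes for the citric acid cycle and pyruvate dehydrogenase were higher than in vehicle, with a median of 0.31. Over all 11109 expressed genes 4659 were higher there, with a median of −0.11. In EZH2i 12 of 18 were higher, with a median of 0.22, near the 0.19 of all expressed genes, of which 6830 were higher. MDH2, the malate dehydrogenase of mitochondria, was at log2 FPKM 6.89 (vehicle), 7.55 (CDK2i) and 6.59 (EZH2i). None of these 18 genes was called. The 8 electron carriers and subunits outside the name patterns had medians of 0.25 and 0.12. Among them CYC1, the cytochrome c1 of complex III, was at 7.86, 8.36 and 7.37, and GPD2, which passes electrons from glycerol phosphate to ubiquinone, at 3.24, 3.71 and 4.72. Over 34 expressed assembly factors the medians were −0.31 and 0.02. SDHAF1, which helps to insert the iron-sulfur clusters of complex II, was at 4.06, 1.83 and 3.68, and TMEM70, a factor of complex V, at 3.52, 2.0 and 3.54.

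Genes for the upkeep and expression of mitochondrial DNA had medians of −0.27 in CDK2i and 0.36 in EZH2i over 15 expressed genes. TFAM, which packs and transcribes this DNA, was at log2 FPKM 2.62, 2.87 and 3.82, POLRMT, its RNA polymerase, at 5.24, 5.23 and 4.81, and TEFM, an elongation factor, at 1.69, 0.19 and 2.46. C10orf2, the helicase Twinkle, was at 3.46, 1.33 and 3.82. LRPPRC, which stabilizes mitochondrial mRNAs, was at 4.59, 4.87 and 5.21 and its partner SLIRP at 5.18, 4.64 and 4.61. Regulators of the nuclear subunit genes had medians of −0.40 and 0.36 over 10 expressed genes. NRF1 was at 2.18, 0.92 and 2.61, GABPA at 1.43, 2.03 and 2.62, YY1 at 3.94, 3.83 and 4.27, PPRC1, a coactivator, at 3.22, 1.51 and 4.0, and MYC at 6.32, 7.51 and 6.03. For 10 carriers and channels of the mitochondrial membranes the medians were −0.10 and 0.002. Mitochondrial ribosomal proteins had medians of −0.31 and −0.11 over 70 expressed genes and the proteasome core −0.27 and −0.07 over 12.

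The 83 expressed cytosolic ribosomal protein genes, which are also short and abundant, had medians of −0.88 in CDK2i and −1.02 in EZH2i. They were lower in 83 and 78 of 83 cases. In EZH2i they lay further below all genes than the nuclear members did, and in CDK2i their median was near that of the mitochondrial members, while the nuclear median of −0.09 was near that of all genes. Markers of other cells also differed between the libraries. The keratins given above were highest in CDK2i. Markers of leukocytes summed to 11.3 (vehicle), 11.1 (CDK2i) and 5.30 FPKM (EZH2i), mostly CD14 at 8.02, 7.95 and 3.15, while CSF1R was highest in EZH2i. Those of striated muscle summed to 4.66, 5.15 and 2.40, mostly MB at 3.93, 3.80 and 1.86. Those of endothelium and adipocytes were also lowest in EZH2i, and those of fibroblasts in vehicle. Sums carried by 1 gene do not measure a cell type, and human symbols do not measure mouse host cells. The part of other cells in the members' changes was not tested.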

How the data were processed

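RNAseq was performed on total RNA of xenograft tumors, in 3 libraries. The authors deposited log2 FPKM per gene symbol, with −9 for an FPKM of 0, and no counts. Per the labels, CASAVA and STAR were used with hg19, and the counting tool, its treatment of strand and the annotation release were not given in the sources used here. Members were found by name, and symbols ending in P and digits were left out except MT-ATP6 and MT-ATP8. Annotation, lengths and overlaps came from GENCODE 44 on GRCh37, in which 79 of the 100 names matched and 21 matched by an older symbol, so fragment numbers are approximate. The depth was taken from the step of 1 fragment among low genes, within 0.004 on the log2 scale. Changes are differences of log2 FPKM without pseudocount, and no test was run, since there was 1 library per condition. Intervals are exact 95% intervals for counting error only, and fragments without molecular identifiers are not independent molecules. The trend over GC content and log2 transcript length was cubic (degree 3) and fitted over 10116 expressed nuclear genes. Members and cytosolic ribosomal protein genes were left out of this fit. The code was tested on simulated data. The genes named were every mitochondrial member, every called member, the 3 largest rises and falls among expressed members in each comparison, core subunits and isoform sets, and from the other lists examples chosen after their values were seen. The values of 1 core subunit are not reported here. Members, lists and thresholds were chosen with earlier results of these data known. Alternatives covered scaling, pseudocounts of 1 and 0.1 FPKM, the trend, filters and thresholds. Python 3.11.15, numpy 2.4.6, pandas 2.3.3, scipy 1.17.1 and matplotlib 3.10.9 were used.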

Additional observations from a re-analysis of the deposited data

How the results depend on the processing

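Scaling between the libraries moved the medians and left the nuclear median less the mitochondrial median at its values. Centring each library on its median expressed gene shifted CDK2i by 0.18 and EZH2i by −0.25. The nuclear medians were then 0.10 in CDK2i (a turned sign), −0.75 in EZH2i and −0.77 between EZH2i and CDK2i, the mitochondrial medians −0.63, −0.73 and −0.10 (turned), and 3, 15 and 18 members were called (3.75%, 19.0% and 22.5%, against 10.5%, 12.1% and 22.4% of all genes). With the summed FPKM made equal, the nuclear medians were 0.062 (turned) in CDK2i and −0.25 in EZH2i, the mitochondrial ones −0.66 and −0.23, and 3 and 0 members were called, against 10.5% and 20.4% of all genes. Without ribosomal protein and mitochondrially encoded genes in that sum, the nuclear medians were −0.23 in CDK2i and −0.15 between EZH2i and CDK2i, and the mitochondrial ones −0.96 and 0.52. With the GC and length trend removed, the nuclear medians were 0.12 in CDK2i (turned) and −0.59 between the treated tumors. The nuclear less the mitochondrial median was then 0.93 in CDK2i, −0.93 between the treated tumors and 0.077 in EZH2i (turned), though mitochondrial genes were not corrected. Members called were 5 in CDK2i and 8 between the treated tumors (6.25% and 10.0%, against 9.11% and 14.5%). In EZH2i 7 were called, all lower (8.86%, against 5.25% of all genes in either direction and 3.10% lower). With all members above FPKM 0 that median difference in EZH2i was 0.021 (turned). A fold above 1.5 called 19, 32 and 22 members (23.8%, 40.5% and 27.5%, against 29.4%, 36.6% and 47.7%), in EZH2i all of them lower (40.5% against 12.1%), and no expression minimum called 8 between the treated tumors (8.79% against 39.4%). The causes were not tested beyond what each alternative does by construction. Of the 99 planned values, 68 stayed close to the main one. These were medians that kept their sign and moved by under 0.1 on the log2 scale, or counts within 1.5 times the main one. Among these counts the split between the treated tumors, 1 higher and 3 lower as deposited, was 2 and 2 under equal summed FPKM and 3 and 2 when that sum left out those 2 classes of genes. The same held for 18 values of 2 alternatives chosen after seeing the data, which left out members sharing over 50% of their transcript or the 5 mitochondrial genes that overlap or lie on the other strand. No paired analysis was possible because each group has 1 library.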

Other observations

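The genes set aside from the subunits had these values. ATP5S, the coupling factor B, had a log2 FPKM of 3.26, 2.86 and 3.21 in the vehicle, CDK2i and EZH2i libraries, and ATP5SL one of 4.15, 4.15 and 3.83. The antisense RNA NDUFA6-AS1 was at −1.65, −3.75 and −4.04 and NDUFB2-AS1 at −1.98, −3.98 and −3.85, each from few fragments. Of the 39 pseudogenes left out by name, 4 were expressed.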
